A study of Mus musculus with 17 samples.

Results

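Interferon-stimulated genes are the genes that cells switch on when an interferon binds its receptor, and a list of 50 of them was followed through B cells of mice with genetic lesions of chronic lymphocytic leukaemia (CLL). The members were chosen by name; 48 of the 50 are in the expression table, which holds 18554 genes, and all 48 had enough signal to be tested among 9898 genes. Gbp7 and Igtp were not analysed here. The members were grouped by role into 4 genes of interferon signalling and transcription, 2 of the Isg15 system, 5 sensors of nucleic acids and their helpers, 18 antiviral effectors, 7 interferon-induced GTPases, 3 genes of antigen processing, 2 chemokines and 7 other induced genes.

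Poly(A) RNA of B cells from C57BL/6 mice, whose titles call them old, was sequenced in 17 libraries. The DM-CLL group (n = 2, replicates 4 and 5) carries an Sf3b1 mutation together with an Atm deletion and is labelled as CLL. The DM group (double mutant, n = 3, replicates 1, 3 and 6) carries the same pair of lesions without the CLL label. The Atm MT group (n = 6) and the Sf3b1 MT group (n = 3) carry 1 lesion each, and the WT group (n = 3) carries neither. The series title restricts the lesions to B cells; the labels name neither the driver of that restriction nor the exact alleles, and give no age in numbers. Whether replicates come from separate mice is not stated in the labels, so p-values measure the spread between these libraries, which may be technical. Values are TPM, transcript abundances scaled to a fixed library total, a unit that is also corrected for transcript length and so lets levels of different genes be compared.

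Interferons signal through paired receptors whose Janus kinases phosphorylate STAT proteins. Type I interferons, such as interferon beta, form a complex that contains Stat2 and Irf9 and binds the interferon-stimulated response element (ISRE), whereas interferon gamma, the type II interferon, acts through the gamma-activated site (GAS). The induced genes block virus replication, sense foreign nucleic acid, present antigen on MHC class I and attract T cells, and B cells express many of them at a low tonic level.

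B-cell identity was plain in every library, and the other cells that a library could hold differed between libraries. Cd79a, a signalling chain of the B-cell receptor, lay between 866 and 1988 TPM, and the 6 B-cell markers summed to 2118 TPM in DM replicate 3 and to at most 4893 TPM elsewhere. The 11 macrophage markers in the table summed to 901 to 1616 TPM in Atm MT replicates 1 to 4, against 79.7 to 283 TPM in the other 13 libraries. Erythroid markers summed to 34809 TPM in DM-CLL replicate 4 and to 36.9 TPM in DM-CLL replicate 5, and the same replicate 4 had 208 TPM of T-cell markers and 58.1 TPM of natural killer cell markers, against 11.6 and 8.95 TPM in replicate 5. In bulk RNA, fewer cells of a type and less RNA per cell cannot be told apart. Interferon transcripts themselves were scarce: Ifnb1, Ifna1, Ifna2, Ifna4, Ifna5, Ifna6 and Ifne were listed at 0 in all 17 libraries, and Ifng lay between 0.07 and 1.15 TPM, the highest value being that of DM-CLL replicate 4.

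Promoters of members are shown because ISRE and GAS are the sequences through which interferons act. The windows printed are a part of those of members whose changes are described further on, and each holds a match. Not printed are the windows of Ifitm1 and Tap1 and a second Gbp3 window, which hold no match. Those of Samhd1, Ddx58 and Ifitm2, which hold matches, are also left out. RefSeq windows of GRCm38.p6, from 250 bases before to 50 bases after the transcription start, were found for 38 of the 48 members. The ISRE was searched as GAAANNGAAA and the GAS as TTCNNNGAA, on both strands. Of the 38 members, 19 held an ISRE match in at least 1 window, against 3.99% of the 27025 genes with windows, and 11 held a GAS match, against 9.55% of the genes. By window, 3.44% of all 32851 windows held the ISRE letters and 8.3% the GAS letters. ISRE letters were present in 9 of 15 antiviral effectors and 4 of 5 GTPases, and in 0 of the 3 antigen-processing genes. A match is a description of the letters, not a proven site. In these sequences, written 5′ to 3′ in the direction of transcription, capitals mark the matches.
Gbp3, chr3:142559794-142560093, plus strand: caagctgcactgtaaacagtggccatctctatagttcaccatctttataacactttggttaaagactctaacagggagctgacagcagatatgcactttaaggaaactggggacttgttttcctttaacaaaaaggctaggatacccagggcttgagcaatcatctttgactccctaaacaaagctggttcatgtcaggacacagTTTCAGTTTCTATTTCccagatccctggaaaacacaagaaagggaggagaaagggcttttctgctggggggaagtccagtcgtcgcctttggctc
Gbp2, chr3:142620413-142620712, plus strand: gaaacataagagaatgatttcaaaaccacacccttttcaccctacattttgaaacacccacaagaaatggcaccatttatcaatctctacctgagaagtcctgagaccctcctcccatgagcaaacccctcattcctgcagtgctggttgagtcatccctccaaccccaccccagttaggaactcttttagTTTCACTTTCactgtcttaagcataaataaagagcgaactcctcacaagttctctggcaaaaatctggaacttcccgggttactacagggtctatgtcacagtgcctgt
Cxcl10, chr5:92348840-92349139, minus strand: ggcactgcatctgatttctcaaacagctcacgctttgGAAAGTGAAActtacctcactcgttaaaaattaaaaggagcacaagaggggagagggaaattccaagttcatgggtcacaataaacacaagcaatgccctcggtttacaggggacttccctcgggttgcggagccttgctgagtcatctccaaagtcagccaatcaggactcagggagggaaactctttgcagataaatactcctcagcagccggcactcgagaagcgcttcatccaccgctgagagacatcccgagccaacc
Rsad2, chr12:26456403-26456702, minus strand: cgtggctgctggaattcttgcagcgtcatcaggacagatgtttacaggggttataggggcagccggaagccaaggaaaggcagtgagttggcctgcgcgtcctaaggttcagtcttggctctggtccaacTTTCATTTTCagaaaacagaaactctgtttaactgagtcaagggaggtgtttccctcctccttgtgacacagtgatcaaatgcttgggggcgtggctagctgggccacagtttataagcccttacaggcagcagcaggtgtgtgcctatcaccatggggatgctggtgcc
Eif2ak2, chr17:78882523-78882822, minus strand: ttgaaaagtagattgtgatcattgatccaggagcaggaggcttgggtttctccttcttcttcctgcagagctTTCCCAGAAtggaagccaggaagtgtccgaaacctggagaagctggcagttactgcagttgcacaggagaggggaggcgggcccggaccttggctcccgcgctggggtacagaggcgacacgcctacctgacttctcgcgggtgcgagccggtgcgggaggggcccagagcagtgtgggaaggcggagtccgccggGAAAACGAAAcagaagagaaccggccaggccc
Psmb8, chr17:34197945-34198244, plus strand: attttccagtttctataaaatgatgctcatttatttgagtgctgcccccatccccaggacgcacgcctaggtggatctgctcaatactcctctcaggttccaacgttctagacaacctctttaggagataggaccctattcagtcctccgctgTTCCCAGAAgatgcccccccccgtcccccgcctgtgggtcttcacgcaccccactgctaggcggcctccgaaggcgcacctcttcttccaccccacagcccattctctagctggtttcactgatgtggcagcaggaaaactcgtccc

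In this Gbp3 window 2 ISRE matches overlap, both just before the start, and the Gbp2 window holds 1 in a like place. Cxcl10 carries its match near the far end of the window. Eif2ak2 holds an ISRE match after the start and a GAS match before it, and Psmb8 holds a GAS match only. The Tap1 window, which shares 275 bases with that of its divergently placed neighbour Psmb9, held neither motif.

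Averaged over the 48 members, the group means lay close together and the DM, Atm MT and Sf3b1 MT libraries spread around theirs. On the log2(TPM + 1) scale the mean over the 48 members was 3.57 ± 0.0021 in DM-CLL (SD, n = 2), 3.60 ± 0.44 in DM (n = 3), 3.57 ± 0.46 in Atm MT (n = 6), 3.66 ± 0.25 in Sf3b1 MT (n = 3) and 3.79 ± 0.05 in WT (n = 3). The lowest library was Atm MT replicate 3 at 3.06 and the highest was Atm MT replicate 6 at 4.29, so a single genotype spanned the range of the series. The groups overlapped in this mean except that the DM-CLL libraries, at 3.57 and 3.56, lay below the WT libraries, at 3.74 to 3.85. The changes described next concern single genes or small families. Of the 48 members, 12 (25%) passed an adjusted p of 0.05 in at least 1 comparison, beside 36% of all tested genes.

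**Figure D1:**
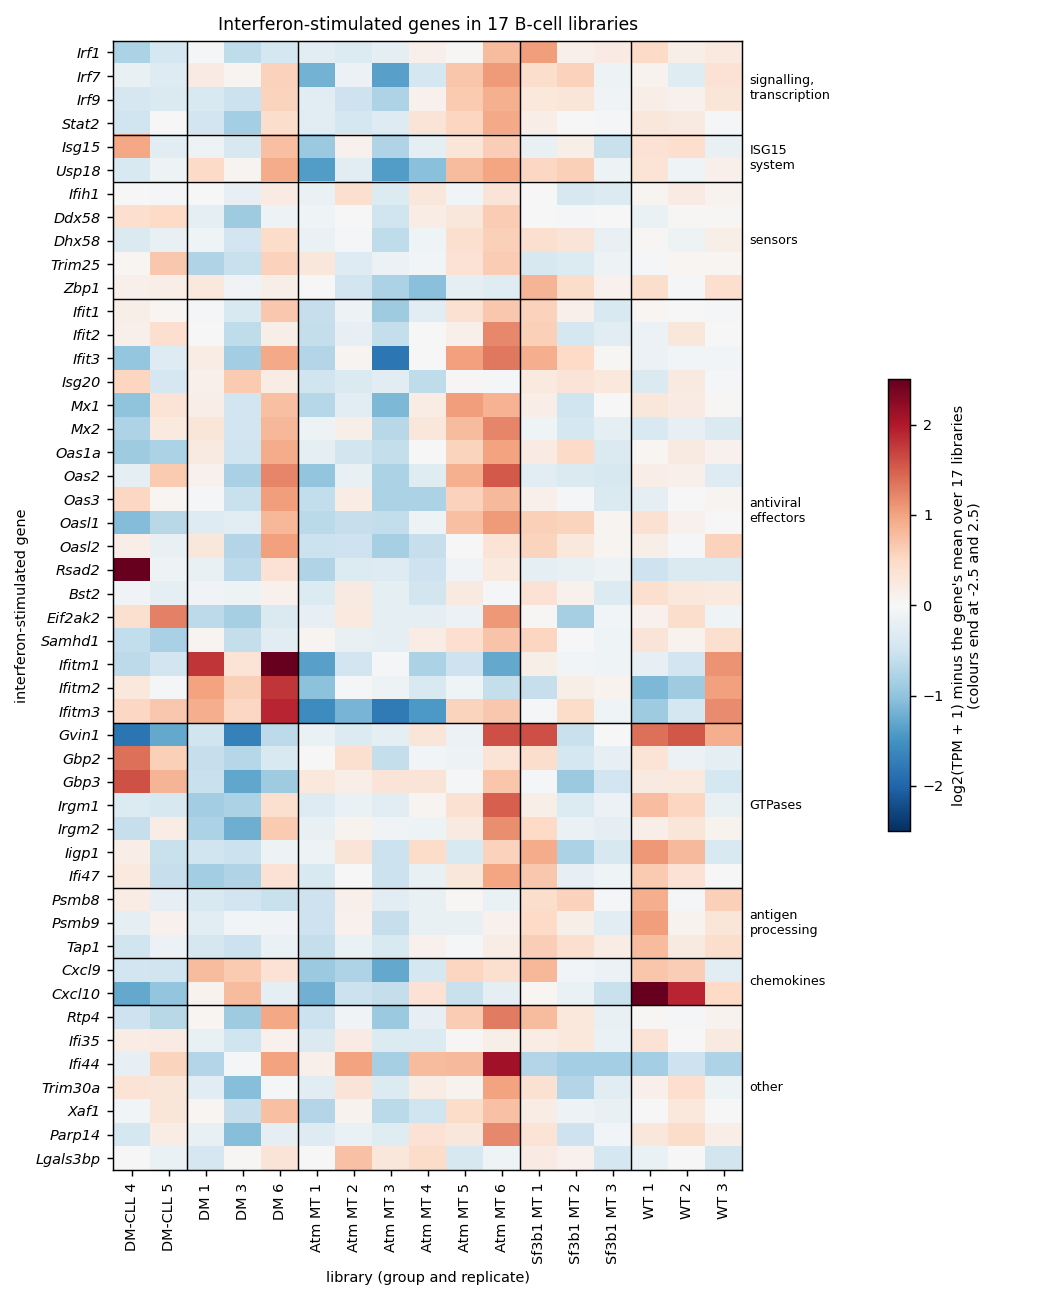
Heat map of the 48 interferon-stimulated genes (vertical axis, ordered by role) in 17 libraries (horizontal axis, by group and replicate); colour is log2(TPM + 1) minus the gene's mean over the libraries. Atm MT replicate 6 holds the highest value of the 17 libraries in 21 of 48 genes (19.6% of all tested genes), and Atm MT replicate 3 holds the lowest in 12 (7.74% of all tested genes).

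In leukaemic against non-leukaemic double mutants, Gbp3, Gbp2, Eif2ak2, Ddx58 and Rsad2 rose and Ifitm1 fell. These 5 rises among 48 members stood beside 29.2% of all tested genes that rose, and the 1 fall beside 1.97% that fell (31.2% passed in either direction), so rises were a smaller share of the members than of all genes. The median log2 ratio was 0.03 over the members and 0.43 over all tested genes, with 25 members above 0 and 23 below. Every DM-CLL library lay above every DM library for 7 members (47.3% of all genes) and below for 9 members (6.05% of all genes). The positive median of all genes depended on scaling: after median-ratio scaling it was −0.03, the member median was −0.46 and 8 of 48 members lay above 0. Of all genes that passed, 93.7% rose before this scaling and 53.8% after it. Listed genes made up 59.7% and 52.9% of the TPM total in DM-CLL, and 43.1% to 48.4% in DM. The part of this difference in the unscaled rises was not tested.

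Against WT, DM-CLL showed 3 rises, of Gbp3, Gbp2 and Rsad2, and 4 falls, of Cxcl10, Gvin1, Samhd1 and Tap1. Over all tested genes, 10.3% rose and 2.81% fell. The member median was −0.30, against 0.19 for all genes, and 28 of 48 members lay below 0. Complete separation was seen above WT for 6 members (32.2% of all genes) and below WT for 17 members (11.7% of all genes). Among the 17 were Irf1, Irf9, Usp18, Oas1a, Oasl1 and Bst2, none of which passed the adjusted test unscaled. After median-ratio scaling Irf1 (−1.11, adjusted p = 0.0189) and Bst2 (−0.66, adjusted p = 0.0456) fell. Irf9, Usp18, Oas1a and Oasl1 did not pass after it. Cxcl10, Gvin1, Samhd1 and Tap1 still fell and Gbp3 and Rsad2 still rose, whereas Gbp2 no longer passed. Of all tested genes 13.5% passed after this scaling, in either direction. With median-ratio scaling the medians were −0.47 for members and 0.02 for all genes, and the share of rises among all genes that passed was 56.8%, against 78.6% unscaled.

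Non-leukaemic double mutants had lower Gvin1, Psmb8 and Tap1 than WT, and no member rose. The 3 falls stood beside 2.08% of all tested genes that fell, 0.152% that rose and 2.23% that passed in either direction. The member median of −0.15 lay close to the median of all genes, −0.25. DM libraries lay wholly below WT for 11 members (28.1% of all genes) and wholly above for 0 members (2.06%). None of the 3 falls passed without the filter on low values (adjusted p = 0.0667 to 0.0835) or after median-ratio scaling. Gvin1 alone passed when only the DM and WT libraries were fitted, and Tap1 alone passed without Atm MT replicates 1 to 4. Markers of B cells moved with these falls. Their sum was 2118 to 2991 TPM in DM, below all 14 other libraries, the lowest of which had 3005 TPM. In all, 6 of 6 markers lay wholly below WT at a median ratio of −0.63, with 1, Cd22, passing, and 0 of 6 after median-ratio scaling. Their part in the falls was not tested. Scaling moved the medians to 0.12 for members and 0.03 for all genes and the share of rises among the genes that passed to 55.6%, against 6.79% unscaled.

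Adding the Sf3b1 mutation to the Atm lesion, DM against Atm MT, was accompanied by a rise of Ifitm1 and Ifitm2 (1.54% of all genes rose) and a fall of Gbp3 (4.52% fell). Without Atm MT replicates 1 to 4 none of the 3 passed (adjusted p = 0.0562 to 0.103), and Ifitm2 did not without the filter on low values (adjusted p = 0.0720). Non-overlapping groups were found for 3 members above (2.21% of all genes) and 3 below (9.5%). The medians were −0.05 for the members and −0.21 for all genes, and 0.18 and 0.01 after scaling. Of all genes that passed, 25.4% rose, and 71.2% after scaling. Adding the Atm lesion to the Sf3b1 mutation, DM against Sf3b1 MT, changed 0 of 48 members by limma's adjusted test, beside 0.121% of all genes in either direction (0.0404% higher and 0.0808% lower), and 6 members had an unadjusted p below 0.05. The smallest p was that of Tap1 (log2 ratio −0.77 ± 0.21, adjusted p = 0.202). The genes that passed were 33.3% rises, and 62.5% after scaling.

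Few members passed with a single lesion. In Atm MT against WT only Cxcl10 passed among the members, as a fall, beside 0.445% of all genes that fell, and 37 of 48 members lay below 0 at a median of −0.16, against −0.05 for all genes. Atm MT libraries lay wholly below WT for 3 members, Cxcl10, Tap1 and Bst2 (3.48% of all genes), and wholly above for 0 (1.62%). In Sf3b1 MT against WT 0 of 48 members passed in limma, beside 0.0707% of all genes in either direction, and 1 had an unadjusted p below 0.05. Complete separation was seen for 3 members above WT (2.4% of all genes) and 3 below (17.1%). The member with the small unadjusted p was again Cxcl10 (log2 ratio −1.92 ± 0.46, adjusted p = 0.175), which passed once WT replicate 3 was left out (−2.53, adjusted p = 0.0225). An interaction term, which asks whether the effect of 1 lesion differs with the other present, passed for 0 of the 9898 genes and so for 0 members, and 3 members had an unadjusted p below 0.05: Cxcl10 (2.60, adjusted p = 0.483), Ifitm1 (2.63, adjusted p = 0.589) and Ifitm2 (1.29, adjusted p = 0.896). The comparisons share groups, DM and WT above all, and are not independent of each other.

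**Figure D2:**
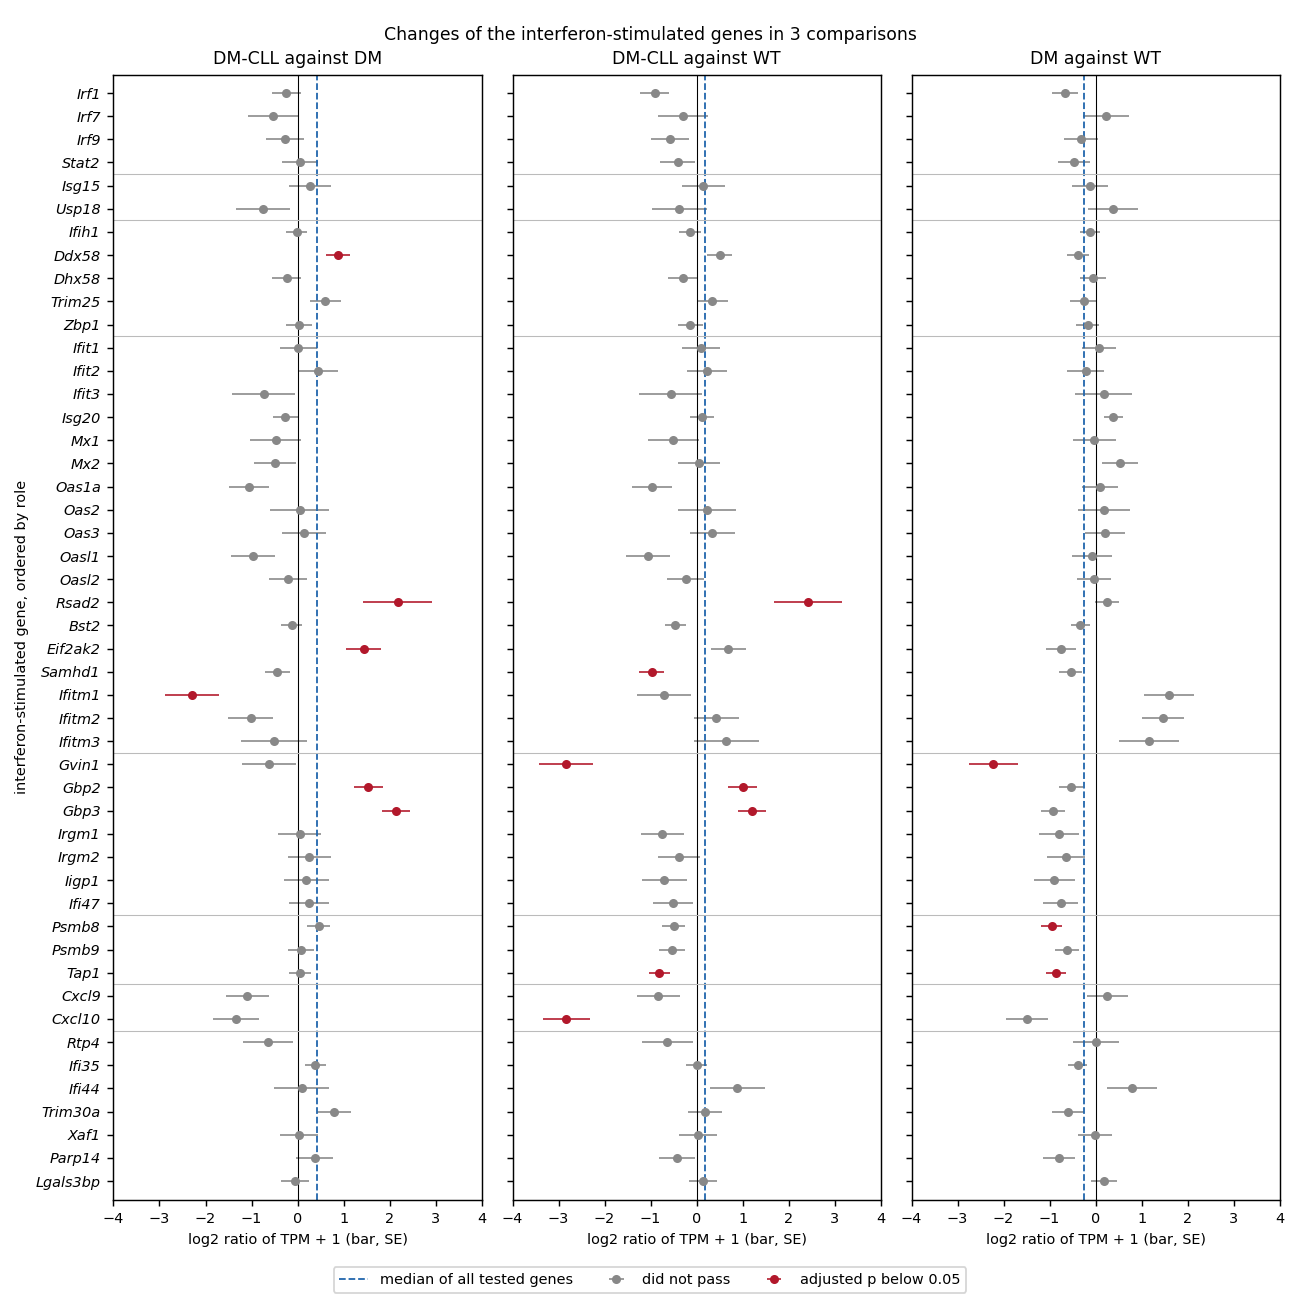
Log2 ratio of TPM + 1 (horizontal axis; bar, SE) for each of the 48 genes (vertical axis) in DM-CLL against DM, DM-CLL against WT and DM against WT; red points passed an adjusted p of 0.05 and the dashed line is the median of all tested genes. Gbp2 and Gbp3 lie right of 0 in both DM-CLL panels, and Gvin1, Psmb8 and Tap1 are the red points left of 0 in DM against WT, none of which passed after median-ratio scaling.

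Among the GTPases, the guanylate-binding proteins Gbp2 and Gbp3, which attack the membranes around intracellular pathogens, rose in the leukaemic libraries against both DM and WT. Gbp3 (chromosome 3, 142560026 to 142573209, GRCm38) measured 91.6 and 54.8 TPM in DM-CLL libraries, 20.0, 11.6 and 15.7 TPM in DM, 28.8 to 49.1 with a median of 36.7 in Atm MT, 28.7, 15.1 and 21.2 in Sf3b1 MT and 34.9, 35.7 and 21.8 in WT. Both DM-CLL libraries exceeded all 15 others, and the 3 DM libraries lay below every Atm MT and every WT library. The means were 73.2 ± 26.0 TPM in DM-CLL (SD, n = 2), 15.8 ± 4.20 TPM in DM and 30.8 ± 7.82 TPM in WT. Gbp3 rose in DM-CLL against DM (log2 ratio 2.13 ± 0.30, adjusted p = 0.000158), and passed in all 5 omissions of a library and under all 5 alternative settings. It also rose against WT (log2 ratio 1.21 ± 0.30, adjusted p = 0.0138), though not without DM-CLL replicate 4 (0.84, adjusted p = 0.203) or WT replicate 3 (0.99, adjusted p = 0.0604) or when only the DM-CLL and WT libraries were fitted (adjusted p = 0.0693), and fell in DM against Atm MT (log2 ratio −1.20 ± 0.22, adjusted p = 0.0229; adjusted p = 0.149 without DM replicate 3, 0.0590 without DM replicate 1 and 0.0553 without Atm MT replicate 4).

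Gbp2 (chromosome 3, 142620602 to 142638008), which neighbours Gbp3, measured 43.8 and 24.8 TPM in DM-CLL libraries, 10.6, 9.52 and 12.1 TPM in DM, 10.4 to 21.7 with a median of 15.8 in Atm MT, 22.1, 11.6 and 13.9 in Sf3b1 MT and 20.7, 14.5 and 13.5 in WT. Its order was the same at the top, since the DM-CLL libraries again stood above all others, with replicate 4 the higher. It rose against DM (log2 ratio 1.54 ± 0.31, adjusted p = 0.00204) and against WT (log2 ratio 1.0 ± 0.31, adjusted p = 0.0445). Without DM-CLL replicate 4 the ratio to DM was 1.14 (adjusted p = 0.0509) and that to WT 0.60 (adjusted p = 0.405). The ratio to WT also missed without WT replicate 2 or 3 (adjusted p = 0.115 and 0.131). The call against WT also ended after median-ratio scaling (0.81, adjusted p = 0.0636), without the filter on low values (adjusted p = 0.0654) and when only the DM-CLL and WT libraries were fitted (adjusted p = 0.0997). How reads that match several members of this family were assigned is not given in the sources used here, which holds equally for the Ifitm, Ifit3, Oas1a, Trim30a and Gvin1 families, so the split between close copies is uncertain.

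Gvin1, a very large interferon-inducible GTPase (chromosome 7, 106156556 to 106215326), went the other way. It had 6.78 and 10.5 TPM in DM-CLL libraries, 18.7, 7.64 and 16.7 TPM in DM, 21.0 to 84.2 with a median of 23.9 in Atm MT, 83.5, 17.9 and 26.6 in Sf3b1 MT and 71.5, 80.6 and 50.7 in WT. The double mutants, leukaemic or not, had less than any WT or Atm MT library, while 1 of 3 Sf3b1 MT libraries, with 83.5 TPM, lay above the highest WT library. Gvin1 fell in DM-CLL against WT (log2 ratio −2.84 ± 0.59, adjusted p = 0.00398; adjusted p = 0.0546 without DM-CLL replicate 4) and in DM against WT (log2 ratio −2.22 ± 0.54, adjusted p = 0.0449). The call in DM did not hold in any of the 6 omissions of a DM or WT library (adjusted p = 0.0536 to 0.166). Ifi47, the most abundant GTPase of the list, measured 45.6 and 25.2 TPM in DM-CLL libraries, 20.5, 22.3 and 49.4 TPM in DM, 26.1 to 76.9 with a median of 35.8 in Atm MT, 61.3, 33.0 and 35.1 in Sf3b1 MT and 60.6, 49.5 and 38.4 in WT, and its groups overlapped throughout. Of the other GTPases Irgm1, Irgm2 and Iigp1, immunity-related GTPases of the vacuole, none passed in a comparison. In DM against WT 7 of 7 GTPases had a ratio below 0, before and after median-ratio scaling, with 1 passing before it and 0 after. Over all 9898 tested genes 7751 had a ratio below 0 before scaling, and the median after it was 0.03.

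**Figure D3:**
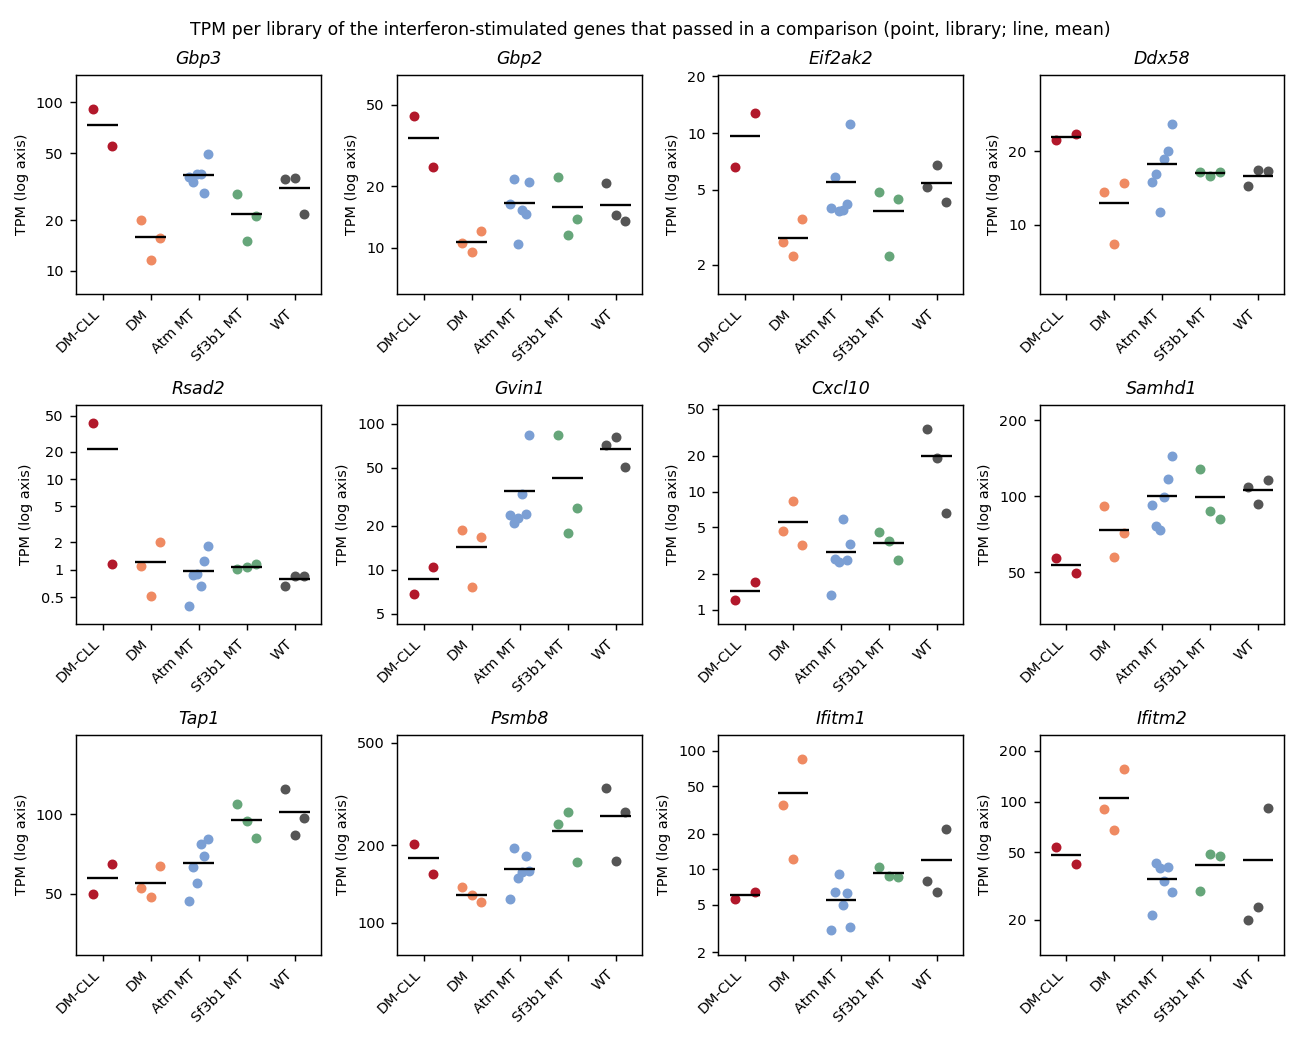
TPM per library (vertical log axis) of the 12 interferon-stimulated genes that passed in at least 1 comparison, by group; points are libraries and lines are group means. Both DM-CLL libraries lie above all others for Gbp2 and Gbp3, and a single DM-CLL library, at 41.4 TPM, carries the rise of Rsad2.

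The 3 antigen-processing genes lie side by side in the MHC region, and all were the highest in WT by group mean. Psmb8 and Psmb9 are catalytic subunits of the immunoproteasome, and Tap1 is a chain of the transporter that brings peptides into the endoplasmic reticulum. Tap1 (chromosome 17, 34187553 to 34197225) measured 49.96 and 64.5 TPM in DM-CLL libraries, 52.8, 48.6 and 63.8 TPM in DM, 47.1 to 80.6 with a median of 66.3 in Atm MT, 109, 94.0 and 81.3 in Sf3b1 MT and 125, 83.3 and 96.8 in WT. The DM libraries lay below all WT and Sf3b1 MT libraries, and the Atm MT libraries lay below all WT libraries. Tap1 fell in DM against WT (log2 ratio −0.86 ± 0.21, adjusted p = 0.0451) and in DM-CLL against WT (log2 ratio −0.81 ± 0.24, adjusted p = 0.0324), and did not pass in Atm MT against WT (log2 ratio −0.63 ± 0.18, adjusted p = 0.142). The call in DM held in 1 of 6 omissions, that of DM replicate 6 (adjusted p = 0.0439), and that in DM-CLL was lost without DM-CLL replicate 4 (−0.63, adjusted p = 0.249), WT replicate 1 (−0.65, adjusted p = 0.122) or WT replicate 3 (−0.83, adjusted p = 0.0620), or with only the DM-CLL and WT libraries fitted (adjusted p = 0.0945).

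Psmb8 (chromosome 17, 34197721 to 34201454) measured 202 and 155 TPM in DM-CLL libraries, 137, 128 and 120.3 TPM in DM, 124 to 195 with a median of 158 in Atm MT, 241, 268 and 171 in Sf3b1 MT and 334, 174 and 269 in WT. Values of the 3 DM libraries lay below those of every DM-CLL, Sf3b1 MT and WT library, and WT replicate 2 was the lowest in its group. It fell in DM against WT (log2 ratio −0.96 ± 0.23, adjusted p = 0.0434), a call kept in 1 of 6 omissions, that of WT replicate 2. Its ratio in DM-CLL against DM was 0.46, adjusted p = 0.182, and −0.08 after median-ratio scaling (adjusted p = 0.862). Psmb9 (chromosome 17, 34181987 to 34187764) measured 90.6 and 113 TPM in DM-CLL libraries, 87.1, 101 and 99.9 TPM in DM, 70.4 to 114 with a median of 93.1 in Atm MT, 149, 117 and 86.1 in Sf3b1 MT and 219, 113 and 131 in WT. All DM libraries lay below all WT libraries for this gene as well, without passing (log2 ratio −0.62 ± 0.26, adjusted p = 0.165). After median-ratio scaling the DM against WT ratios were −0.62 for Psmb8 (adjusted p = 0.204) and −0.53 for Tap1 (adjusted p = 0.126).

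The MHC class I genes that use this machinery were followed in a further list of 15 tested genes. In DM against WT 3 fell and 0 rose (2.08% and 0.152% of all tested genes), 0 passing after median-ratio scaling, the 3 being H2-K1, H2-D1 and Tapbp, which encode class I heavy chains and the tapasin chaperone. H2-K1 measured 615 and 692 TPM in DM-CLL libraries, 752, 687 and 787 in DM and 1866, 1253 and 1529.9 in WT. Both double-mutant groups lay below every WT library, and the falls passed in DM (log2 ratio −1.04 ± 0.21, adjusted p = 0.0274) and in DM-CLL (log2 ratio −1.23 ± 0.23, adjusted p = 0.00209). With a single lesion 0 of the 15 passed against WT. Ratios lay below 0 for 15 of 15 in Atm MT (median −0.31, and −0.05 over all genes) and 12 of 15 in Sf3b1 MT (−0.27, and −0.11 over all genes). In DM-CLL against WT 6 of the 15 fell (2.81% of all genes), namely H2-K1, B2m, the class I light chain (log2 ratio −1.16 ± 0.24, adjusted p = 0.00370), H2-Q6, H2-T23, H2-D1 and Calr. After scaling 8 of the 15 fell, beside 577 of all 9898 tested genes. In DM-CLL against DM 4 of 15 rose (29.2% of all genes), namely Erap1, Psme2, Tap2 and Tapbp, and B2m fell (log2 ratio −0.69 ± 0.24, adjusted p = 0.0365; 1.97% of all genes). After scaling none of the 4 rises passed and 7 of the 15 fell, beside 749 of all 9898 tested genes.

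The chemokines Cxcl9 and Cxcl10, which draw activated T cells through the receptor Cxcr3, were low in the leukaemic libraries. Cxcl10 (chromosome 5, 92346638 to 92348889) measured 1.21 and 1.71 TPM in DM-CLL libraries, 4.68, 8.32 and 3.51 TPM in DM, 1.33 to 5.88 with a median of 2.68 in Atm MT, 4.52, 3.79 and 2.65 in Sf3b1 MT and 33.8, 19.1 and 6.54 in WT. WT replicates differed widely, with replicate 1 the highest, and every DM-CLL, Atm MT and Sf3b1 MT library lay below the lowest of them. Cxcl10 fell in DM-CLL against WT (log2 ratio −2.83 ± 0.50, adjusted p = 0.00131), in all 5 omissions and under all 5 alternative settings, and in Atm MT against WT (log2 ratio −2.16 ± 0.40, adjusted p = 0.0196). Without WT replicate 1 or 2 the Atm MT ratio was −1.66 or −2.06 and did not pass (adjusted p = 0.146 and 0.118). Without Atm MT replicates 1 to 4 it was −2.09 (adjusted p = 0.163), and with only the Atm MT and WT libraries fitted the adjusted p was 0.0926. The macrophage marker sum was 111 to 1616 TPM in Atm MT and 79.7 to 235 TPM in WT; its part in the Cxcl10 values was not tested. Cxcl9 measured 1.47 and 1.44 TPM in DM-CLL libraries, 4.91, 4.44 and 3.42 TPM in DM, 0.410 to 3.98 with a median of 1.27 in Atm MT, 5.09, 2.26 and 2.11 in Sf3b1 MT and 4.58, 4.29 and 1.83 in WT. Both DM-CLL libraries lay below every DM, Sf3b1 MT and WT library, but the ratio to DM did not pass (log2 ratio −1.09 ± 0.47, adjusted p = 0.0895), nor did that of Cxcl10 (log2 ratio −1.34 ± 0.50, adjusted p = 0.0523), while both passed after median-ratio scaling (Cxcl9 −1.46, adjusted p = 0.0410; Cxcl10 −1.71, adjusted p = 0.0328).

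Antiviral effectors moved in both directions. Eif2ak2 encodes PKR, the kinase that stops translation when it binds double-stranded RNA (chromosome 17, 78852564 to 78882573), and measured 6.58 and 12.8 TPM in DM-CLL libraries, 2.66, 2.24 and 3.49 TPM in DM, 3.88 to 11.2 with a median of 4.11 in Atm MT, 4.88, 2.24 and 4.47 in Sf3b1 MT and 5.18, 6.82 and 4.32 in WT. DM-CLL libraries lay above all DM libraries, and DM libraries below all Atm MT and WT libraries. PKR transcripts rose in leukaemic against other double mutants (log2 ratio 1.44 ± 0.38, adjusted p = 0.0100; 1.01, adjusted p = 0.108 without DM-CLL replicate 5, and 1.01, adjusted p = 0.0645 after median-ratio scaling). Its ratio in DM against WT did not pass (log2 ratio −0.76 ± 0.33, adjusted p = 0.180).

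Rsad2 encodes viperin, an enzyme that makes a chain-terminating nucleotide (chromosome 12, 26442746 to 26456452). It had 41.4 and 1.16 TPM in DM-CLL libraries, 1.09, 0.510 and 2.03 TPM in DM, 0.400 to 1.81 with a median of 0.880 in Atm MT, 1.01, 1.08 and 1.16 in Sf3b1 MT and 0.660, 0.850 and 0.850 in WT. One library, DM-CLL replicate 4, stood far above the other 16, and DM-CLL replicate 5 lay within the range of the DM libraries. The ratio of DM-CLL to DM (log2 ratio 2.17 ± 0.74, adjusted p = 0.0352) was 0.03 without replicate 4 (adjusted p = 0.970), and the ratio to WT (log2 ratio 2.42 ± 0.74, adjusted p = 0.0400) was 0.28 (adjusted p = 0.750). The rise, which passed under 1 of 5 alternative settings against DM and 2 of 5 against WT, was thus that of 1 library, which also had the highest erythroid, T-cell and natural killer marker sums of the series; their part in the Rsad2 value was not tested. In the same library Isg15 was 40.4 TPM and Ifit1 was 1.47 TPM, and in DM-CLL replicate 5 they were 16.3 and 1.31 TPM.

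Samhd1, which degrades the nucleotides needed for viral DNA synthesis (chromosome 2, 157097533 to 157135265), was the most abundant effector. It measured 56.7 and 49.6 TPM in DM-CLL libraries, 91.7, 57.5 and 71.7 TPM in DM, 73.2 to 144 with a median of 95.6 in Atm MT, 128, 87.7 and 81.3 in Sf3b1 MT and 109, 93.1 and 116 in WT. The 2 DM-CLL libraries were the lowest of the 17, with DM replicate 3 close to them at 57.5 TPM, and all DM libraries lay below all WT libraries. Samhd1 fell in DM-CLL against WT (log2 ratio −0.98 ± 0.27, adjusted p = 0.0253), which held in 1 of 5 omissions, that of WT replicate 2 (adjusted p = 0.0390, and 0.0654 to 0.116 in the other 4), and after median-ratio scaling it fell against DM as well (−0.97, adjusted p = 0.0121).

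The Ifitm genes encode small membrane proteins that keep viruses from fusing with cell membranes, and they were highest in non-leukaemic double mutants. Ifitm1 (chromosome 7, 140967221 to 140969825) measured 5.59 and 6.45 TPM in DM-CLL libraries, 35.0, 12.2 and 84.9 TPM in DM, 3.05 to 9.05 with a median of 5.62 in Atm MT, 10.5, 8.84 and 8.66 in Sf3b1 MT and 7.94, 6.46 and 21.7 in WT. DM libraries lay above all DM-CLL, Atm MT and Sf3b1 MT libraries, and WT replicate 3 was the only other library above 12 TPM. Ifitm1 rose in DM against Atm MT (log2 ratio 2.48 ± 0.47, adjusted p = 0.0229; adjusted p = 0.0683 without DM replicate 1 and 0.0556 without Atm MT replicate 4) and fell in DM-CLL against DM (log2 ratio −2.30 ± 0.59, adjusted p = 0.00863; adjusted p = 0.0642 without DM-CLL replicate 4 and 0.0540 with only the DM-CLL and DM libraries fitted). Ifitm2 (chromosome 7, 140954837 to 140955987) measured 53.7 and 42.8 TPM in DM-CLL libraries, 90.5, 67.7 and 155 TPM in DM, 21.4 to 43.6 with a median of 37.4 in Atm MT, 29.5, 49.2 and 47.5 in Sf3b1 MT and 19.9, 23.7 and 91.8 in WT. The pattern was that of Ifitm1, with DM and WT replicate 3 on top, and the rise in DM against Atm MT passed (log2 ratio 1.5 ± 0.40, adjusted p = 0.0408), and did so in 2 of 9 omissions, those of Atm MT replicates 3 and 5. Ifitm3 (chromosome 7, 141009586 to 141010770) measured 64.0 and 72.0 TPM in DM-CLL libraries, 84.8, 64.3 and 169 TPM in DM, 12.3 to 71.6 with a median of 17.5 in Atm MT, 43.2, 61.3 and 41.4 in Sf3b1 MT and 23.6, 32.4 and 102 in WT. Here Atm MT replicates 5 and 6 reached into the DM range, and DM against Atm MT passed only after median-ratio scaling (1.90, adjusted p = 0.0573 unscaled; 2.16, adjusted p = 0.0419 scaled).

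Markers of neutrophils and monocytes, which also express Ifitm genes, moved with part of this pattern. The 10 neutrophil markers summed to 1411 and 123 TPM in DM-CLL, 477 to 1556 TPM in DM, 91.7 to 816 TPM in Atm MT, 158 to 589 TPM in Sf3b1 MT and 63.6, 100.5 and 1109 TPM in WT. WT replicate 3 and DM replicate 6 were high in both the markers and the Ifitm genes, whereas DM-CLL replicate 4, with a sum of 1411 TPM, had 5.59 TPM of Ifitm1. In DM against Atm MT 3 of the 10 markers rose, Elane, Mpo and Prtn3, the last of which was at 0 in Atm MT replicates 1, 2 and 4. In DM-CLL against DM 0 of the 10 passed. The 5 monocyte markers in the table summed to 49.7 and 56.1 TPM in DM-CLL, 112 to 132 TPM in DM, 38.6 to 87.1 TPM in Atm MT, 43.9 to 60.6 TPM in Sf3b1 MT and 39.7 to 93.3 TPM in WT. All 3 DM libraries lay above the 14 others in this sum, as for Ifitm1 apart from WT replicate 3. No single one of the 5 markers separated them. Most of the sum was Ly6c2, at 81.9 to 97.1 TPM in DM and 87.2 TPM in WT replicate 2. Cd14 was 8.53 to 10.4 TPM in DM and 10.5 TPM in Atm MT replicate 4. Ccr2, F13a1 and Ms4a4a had 3.01, 1.3 and 0.74 TPM in DM replicate 3, and 8.9, 6.68 and 4.97 TPM in DM-CLL replicate 5. Of these 5 markers 2 fell in DM-CLL against DM, Ly6c2 and Cd14, and in DM against Atm MT 5 of 5 had a ratio above 0 and 0 passed. Dendritic cell markers without Bst2 summed to 23.8 to 35.3 TPM in DM and 2.82 to 25.7 TPM in Atm MT. In DM-CLL the sums were 10.2 and 17.2 TPM. With Bst2 added, 2 of 8 dendritic markers rose in DM against Atm MT. So did 2 of 9 natural killer, 2 of 6 platelet and 2 of 6 erythroid markers (1.54% of all genes). After scaling 5, 5, 4 and 1 markers of these lists rose, beside 275 of all 9898 genes. Falls were seen for 1 of 11 macrophage and 1 of 6 B-cell markers unscaled (4.52%). The part of any marker list in the Ifitm values was not tested.

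The remaining 12 effectors, the Ifit, Mx and Oas families with Oasl1, Oasl2, Isg20 and Bst2, passed in 0 of the 8 comparisons before scaling. C57BL/6 mice carry defective Mx genes, so these transcripts are read as markers only. Mx1 lay between 0.61 and 6.2 TPM and Ifit1 between 0.21 and 2.57 TPM over the 17 libraries. Oas1a, an enzyme that activates RNase L, had 4.18 and 4.55 TPM in DM-CLL libraries, 10.2, 5.79 and 17.2 in DM and 8.83, 10.2 and 9.31 in WT. Both leukaemic libraries were below all the others; the ratio to DM did not pass unscaled (−1.05, adjusted p = 0.0737) and passed after median-ratio scaling (−1.5, adjusted p = 0.0149), as did those of Oasl1 (−1.32, adjusted p = 0.0453) and Bst2, or tetherin (−0.65, adjusted p = 0.0407). Isg20, an RNA exonuclease, reached 0.61, adjusted p = 0.0529 in DM against Atm MT, and 0.87 with adjusted p = 0.0309 after scaling.

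Of the sensors, 1 of 5 passed. Ddx58 encodes RIG-I, which detects viral RNA ends in the cytosol (chromosome 4, 40203773 to 40239828), and measured 22.1 and 23.6 TPM in DM-CLL libraries, 13.7, 8.33 and 14.8 TPM in DM, 11.2 to 25.7 with a median of 17.4 in Atm MT, 16.5, 15.9 and 16.4 in Sf3b1 MT and 14.4, 16.7 and 16.6 in WT. The DM-CLL libraries were higher than all DM, Sf3b1 MT and WT libraries but not than Atm MT replicate 6. RIG-I transcripts rose in leukaemic against other double mutants (log2 ratio 0.88 ± 0.27, adjusted p = 0.0211), and this did not pass after scaling (0.38, adjusted p = 0.215), with only the DM-CLL and DM libraries fitted (adjusted p = 0.0751), without DM replicate 3 (0.65, adjusted p = 0.0858), without DM-CLL replicate 4 (0.93, adjusted p = 0.0834) or without DM-CLL replicate 5 (0.84, adjusted p = 0.0815). Trim25, a ubiquitin ligase that assists RIG-I, measured 21.5 and 33.6 TPM in DM-CLL libraries, 11.9, 13.8 and 31.5 TPM in DM, 16.4 to 32.9 with a median of 22.5 in Atm MT, 15.5, 16.2 and 19.0 in Sf3b1 MT and 20.3, 21.6 and 21.3 in WT. Zbp1, a sensor of Z-form nucleic acids, measured 19.4 and 19.8 TPM in DM-CLL libraries, 21.3, 16.6 and 19.6 TPM in DM, 8.05 to 17.5 with a median of 13.2 in Atm MT, 32.7, 24.7 and 19.0 in Sf3b1 MT and 24.3, 17.3 and 23.9 in WT. Groups overlapped for both in most comparisons; Sf3b1 MT lay wholly below WT for Trim25, and the Zbp1 ratio in Atm MT against WT was −0.76, adjusted p = 0.147. Ifih1 and Dhx58, the other RIG-I-like helicases, passed nowhere, with Ifih1 at 0.89 to 2.32 TPM.

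No signalling member passed in any comparison. Irf1, a transcription factor that interferon gamma induces, was the most abundant of the 4 at 44.3 and 56.3 TPM in DM-CLL libraries, 75.2, 49.4 and 56.3 TPM in DM, 60.6 to 134 with a median of 72.2 in Atm MT, 160.5, 84.4 and 88.7 in Sf3b1 MT and 108, 85.8 and 92.2 in WT. The 5 double-mutant libraries all lay below every Sf3b1 MT and WT library, and the ratios to WT were −0.91, adjusted p = 0.0691 for DM-CLL and −0.67, adjusted p = 0.178 for DM. After median-ratio scaling Irf1 fell in DM-CLL against WT (−1.11, adjusted p = 0.0189). Irf9, the DNA-binding subunit of the type I complex, measured 18.5 and 19.2 TPM in DM-CLL libraries, 19.0, 16.9 and 37.2 TPM in DM, 14.2 to 47.1 with a median of 23.8 in Atm MT, 30.3, 31.1 and 23.3 in Sf3b1 MT and 28.1, 27.2 and 31.1 in WT. DM-CLL lay below WT in both libraries without passing (−0.58, adjusted p = 0.388). The receptor chain of interferon gamma Ifngr1 did not pass in DM-CLL against DM unscaled (−0.28, adjusted p = 0.502) and fell after median-ratio scaling (−0.80, adjusted p = 0.0354).

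Isg15, a ubiquitin-like modifier, and Usp18, the protease that removes it and restrains the type I receptor, did not pass either. Isg15 measured 40.4 and 16.3 TPM in DM-CLL libraries, 18.2, 14.9 and 34.5 TPM in DM, 10.03 to 31.5 with a median of 19.3 in Atm MT, 17.6, 22.5 and 13.3 in Sf3b1 MT and 26.2, 27.1 and 17.4 in WT. DM-CLL replicate 4 was the highest of the 17 libraries and replicate 5 lay among the other groups. Usp18 measured 3.04 and 3.80 TPM in DM-CLL libraries, 6.38, 4.51 and 8.99 TPM in DM, 0.990 to 9.47 with a median of 2.49 in Atm MT, 6.55, 6.98 and 3.85 in Sf3b1 MT and 5.66, 3.89 and 4.74 in WT. Both DM-CLL libraries lay below all DM and WT libraries for Usp18 (−0.75, adjusted p = 0.346 against DM). In the last role, Ifi35 measured 37.1 and 37.5 TPM in DM-CLL libraries, 28.3, 22.8 and 35.0 TPM in DM, 25.1 to 37.9 with a median of 29.3 in Atm MT, 37.1, 39.5 and 28.8 in Sf3b1 MT and 42.3, 32.2 and 38.1 in WT, and Trim30a, a regulator of Toll-like receptor signalling, measured 35.2 and 34.4 TPM in DM-CLL libraries, 22.5, 12.7 and 26.6 TPM in DM, 21.5 to 56.5 with a median of 30.7 in Atm MT, 36.3, 16.3 and 22.9 in Sf3b1 MT and 30.4, 37.2 and 25.2 in WT. DM-CLL libraries exceeded the DM libraries for both genes and overlapped with WT, and neither passed against DM (0.39, adjusted p = 0.196 for Ifi35, whose ratio was −0.13 after median-ratio scaling, and 0.79, adjusted p = 0.119 for Trim30a). Rtp4, Ifi44, Xaf1, Parp14 and Lgals3bp passed in no comparison.

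Libraries of 1 genotype also differed from each other. Atm MT replicate 6 was the highest of the 6 Atm MT libraries for 35 of 48 members (39.4% of all tested genes), and Atm MT replicate 3 the lowest for 24 (25.3%). Replicates 5 and 6 both exceeded replicates 1 to 4 for 28 members, among them Irf7, Irf9, Stat2, Usp18, Mx1, Mx2, Oas1a and Ifitm3, against 24.7% of all tested genes, and both lay below for 1 member, Lgals3bp, against 6.26%. Usp18 for instance was 8.16 and 9.47 TPM in replicates 5 and 6 and at most 3.41 TPM in the other 4. These replicates also differed in macrophage marker sum, 248 and 111 TPM in replicates 5 and 6 against 901 to 1616 TPM in the other 4. The neutrophil sum was lower too (91.7 and 118 against 287 to 816 TPM). Sums of dendritic cell markers without Bst2 (25.7 and 21.1 against 2.82 to 6.51 TPM) and of platelet markers (8.92 and 7.77 against 1.07 to 3.85 TPM) were higher. The other marker sums overlapped. The part of these sums in the member levels was not tested. In DM, replicate 6 was the highest for 37 members (54.7% of all tested genes) and replicate 3 the lowest for 37 (49.6%), and in Sf3b1 MT replicate 1 was the highest for 36 (29.2%). WT replicates 1, 2 and 3 were the highest of their group for 19, 18 and 11 members (31.6%, 26.2% and 42.2% of all tested genes).

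**Figure D4:**
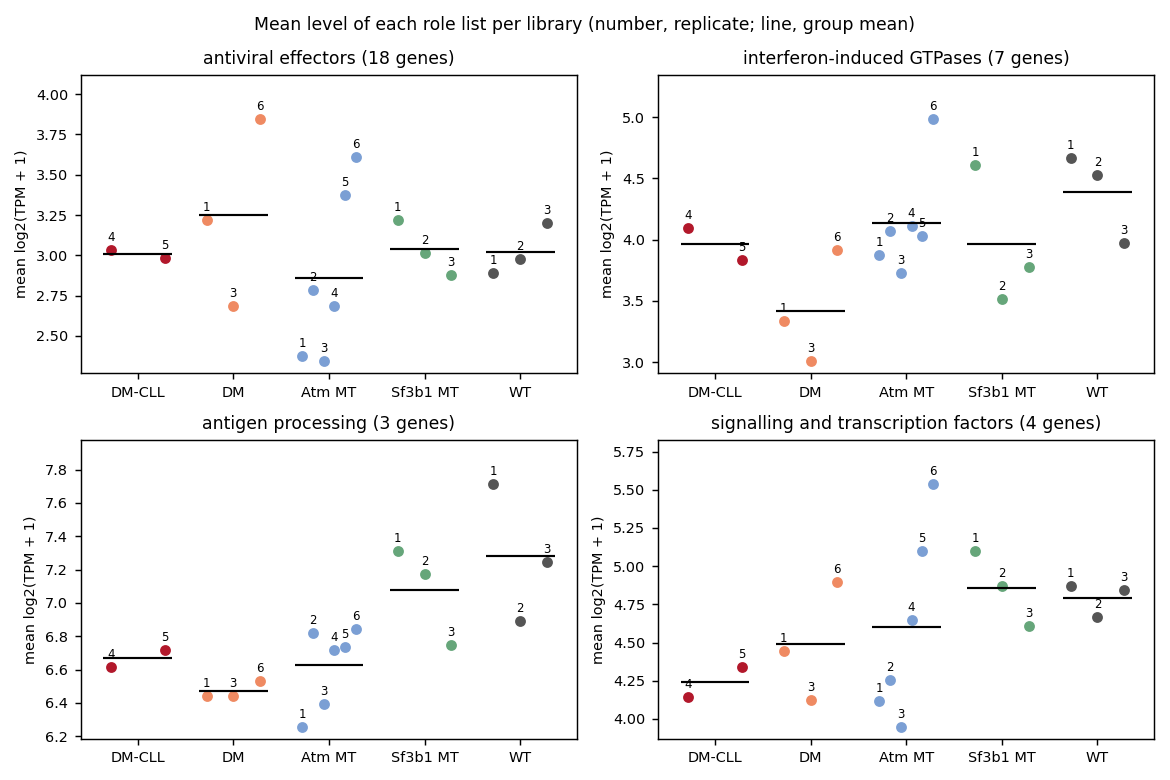
Mean log2(TPM + 1) per library (vertical axis) of 4 role lists by group; numbers are replicates and lines are group means. For antigen processing the DM libraries, at 6.44 to 6.53, lie below the WT libraries, at 6.89 to 7.71, as does the mean of all tested genes (3.15 to 3.34 in DM and 3.42 to 3.47 in WT), whereas for antiviral effectors Atm MT alone spans 2.34 to 3.61.

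By role, the antiviral effectors averaged 3.04 and 2.99 on the log2(TPM + 1) scale in DM-CLL, 2.69 to 3.85 in DM, 2.34 to 3.61 in Atm MT, 2.88 to 3.22 in Sf3b1 MT and 2.89 to 3.20 in WT. Every group overlapped with every other. The GTPases averaged 4.09 and 3.83 in DM-CLL, 3.01 to 3.91 in DM and 3.97 to 4.66 in WT. DM and WT did not overlap for this role, by a margin of 3.91 against 3.97, nor did they for the mean of all 9898 tested genes, at 3.15 to 3.34 in DM and 3.42 to 3.47 in WT. These levels are given as descriptions without a test.

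Genes around the pathway were counted in lists named for this purpose. In DM-CLL against DM their counts stand beside 29.2% of all tested genes that rose and 1.97% that fell. Of 18 interferon receptor and signalling genes, 5 rose in DM-CLL against DM: Ikbke (1.45, adjusted p = 0.000677) and Tbk1 (0.98, adjusted p = 0.00736), the kinases that activate Irf3, the receptor kinase Jak2 (1.05, adjusted p = 0.0252), and the phosphatases Ptpn2 (1.05, adjusted p = 0.0126) and Ptpn6 (0.63, adjusted p = 0.0254). Irf8, a lineage factor of B and myeloid cells, and Socs3, a feedback inhibitor, fell (−1.14, adjusted p = 0.00740 for Irf8 and −1.13, adjusted p = 0.0339 for Socs3). After median-ratio scaling Ikbke alone of the 5 still rose, and Irf8 and Socs3 still fell with 3 others. Over all 9898 tested genes 873 rose and 749 fell in DM-CLL against DM after this scaling. Ikbke, Jak2 and Tbk1 fell in DM against Atm MT (Tbk1 alone after scaling), and Irf8 fell in DM-CLL against WT (−1.98, adjusted p = 0.000253). Of 16 nucleic acid sensing genes, 4 rose in DM-CLL against DM, namely Tlr7, Aim2, Mavs and Ticam1, and 0 fell. After scaling 3 of the 4, all but Mavs, rose and 1 gene, Myd88, fell. Tlr7, the endosomal receptor for single-stranded RNA, averaged 40.1 TPM in DM-CLL, against 8.52 TPM in DM (1.97, adjusted p = 0.00389). In DM against WT 2 of 16 fell, Tlr9 (−1.27, adjusted p = 0.0381) and its chaperone Unc93b1 (−0.89, adjusted p = 0.0290), beside 2.08% of all genes, and 0 after scaling.

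A list of 29 further tested interferon-stimulated genes gave 6 rises and 2 falls in DM-CLL against DM (29.2% and 1.97% of all genes), and 1 rise and 3 falls in DM-CLL against WT (10.3% and 2.81%). After median-ratio scaling the counts were 0 rises and 5 falls against DM, and 0 rises and 6 falls against WT. Over all 9898 tested genes this scaling gave 873 rises and 749 falls against DM, and 759 and 577 against WT. The surface gene Ly6e rose against DM (0.98, adjusted p = 0.000507; 0.44, adjusted p = 0.128 after scaling), with means of 2184 TPM in DM-CLL and 1111 TPM in DM. The membrane gene Ms4a4c fell against both DM (−1.38, adjusted p = 0.0131) and WT (−2.77, adjusted p = 0.000177). In DM against WT 3 fell, Ly6a (−1.47, adjusted p = 0.0210), Ly6e (−0.71, adjusted p = 0.0321) and Ms4a4c (−1.39, adjusted p = 0.0471), and 0 rose, and the same 3 fell in DM against Atm MT. After scaling none of them passed in DM against WT and Ms4a4c alone passed in DM against Atm MT. Of 8 further GTPases Gbp8 rose in DM-CLL against DM (1.0, adjusted p = 0.0340; adjusted p = 0.262 after scaling) and Gbp6 fell in DM-CLL against WT (−1.89, adjusted p = 0.0324).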

How the data were processed

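Libraries were made from poly(A) RNA with a PrepEase extraction and an NEBNext Ultra kit, per the labels' protocols. The authors deposited TPM for 18554 gene symbols in 17 libraries; the submitters' processing notes name STAR and mm10, and the quantifier, annotation, strand setting and treatment of multi-mapping reads are not given in the sources used here. Listed values add up to 43.1% (DM replicate 3) to 59.7% (DM-CLL replicate 4) of the TPM total. The share was 44.1% to 57.2% in WT, 44.1% to 58.1% in Sf3b1 MT and 44.9% to 56.1% in Atm MT. No counts are given, so depth is unknown and no counting interval or floor was computed. Of 136 library pairs, 0 were identical (Pearson's r across genes 0.875 to 0.981).

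Groups came from the genotype labels. The 9898 genes that reached 1 TPM in 2 or more libraries were analysed as log2(TPM + 1), which understates changes of low genes; 3711 genes were at 0 in every library. limma 3.58.1 in R 4.3.3 was fitted with a mean trend, 2-sided moderated tests and Benjamini-Hochberg adjustment over all genes of a comparison at 0.05, with 17 libraries for the DM-CLL comparisons and 15 for the others. The fit was run on simulated data with independent genes, large planted changes and a spread set below that over the 17 libraries. This easier setting checks the code and not the calls in these data. Tables and figures were made with Python 3.11.15, pandas 2.3.3, numpy 2.4.6 and matplotlib 3.10.9. Alternatives were a pseudocount of 0.1, no filter, median-ratio scaling, a replicate block, only the groups compared, no Atm MT replicates 1 to 4, and omission of each library. Values per library are given for members that passed and for the 2 most abundant of each role. Members and lists were chosen with earlier results of these data known. One gene of the B-cell marker list and 1 of the signalling list are not reported here. Coordinates are GRCm38 from GENCODE, and promoters are from RefSeq.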

Additional observations from a re-analysis of the deposited data

Results flagged for a closer look

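In the group of 6 Atm MT libraries, 24 members were examined for a single library far from the rest. Dixon's criterion was applied to TPM without logarithm, and 3 members met it. Chance meets it in about 1 of 20 groups of normally distributed values, a rate that TPM need not follow. Each time the high value was that of Atm MT replicate 6. As this library was the highest of the 6 in 39.4% of all tested genes, the 3 flags are not independent. Irf1, the interferon gamma-induced transcription factor, was 133.8 TPM there and at most 85.0 TPM in the other 5 libraries. Eif2ak2, the kinase PKR, was 11.2 TPM, against at most 5.83 TPM. The large GTPase Gvin1 was 84.2 TPM, against at most 33.0 TPM.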

How the results depend on the processing

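Median-ratio scaling changed the sign of 67 of 384 ratios (48 members in 8 comparisons), 17 of them in DM-CLL against DM and 11 in DM against WT, none of which passed before or after it. No ratio that passed changed sign under the alternatives, and the pseudocount changed no call of a named gene. Members passing in DM-CLL against DM numbered 6, and 10 with median-ratio scaling (2 rises and 8 falls, 3 of them shared with the 6). Over all 9898 tested genes 873 rose and 749 fell after this scaling (16.4% in either direction), against 2889 and 195 before it. The cause was not tested. In DM against WT 3 members passed, 0 without a filter, 0 with scaling (0.273% of all genes), 9 with the replicate block, 1 with only the groups compared and 1 without Atm MT replicates 1 to 4. In DM against Atm MT 3 passed, 5 with scaling (3.9% of all genes) and 0 without Atm MT replicates 1 to 4. In Atm MT against WT 1 passed, 2 with the replicate block, 0 with only the groups compared and 0 without Atm MT replicates 1 to 4. For the alternatives other than scaling and for the omissions, counts over all genes are not given here. Omitting 1 library at a time gave 2 to 8 members for DM-CLL against DM (2 without DM-CLL replicate 4), 1 to 6 for DM-CLL against WT (main count 7; 1 without DM-CLL replicate 4 and 2 without WT replicate 3), 0 to 2 for DM against WT, 0 to 6 for DM against Atm MT (0 without DM replicate 1 or Atm MT replicate 4, 6 without Atm MT replicate 5), 0 to 1 for Atm MT against WT (0 without WT replicate 1 or 2), 0 to 1 for Sf3b1 MT against WT (1 without WT replicate 3) and 0 for DM against Sf3b1 MT and for the interaction. Without 1 of its libraries, DM-CLL was represented by the other, which was assumed to vary like the remaining groups. Whether replicate numbers pair the libraries is not stated in the labels. Of 18 same-numbered pairs 4 correlated above 0.1 (r −0.363 to 0.364), and 2 of 17 libraries correlated best with their own number. These correlations, of deviations from the means of small groups, cannot exclude a shared batch. DM-CLL shares no replicate number with DM or WT, so no block was possible there. With 2 DM-CLL libraries and unknown depth, values of genes below a few TPM are the least certain.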

Other observations

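Ifi44, an interferon-induced gene of the list, was picked after its values were seen. It measured 0.670 and 1.86 TPM in DM-CLL libraries, 0.170, 0.890 and 2.88 TPM in DM, 0.0900 to 7.26 with a median of 2.38 in Atm MT, 0.160, 0.0700 and 0.0800 in Sf3b1 MT and 0.0800, 0.350 and 0.130 in WT. None of the 6 libraries without the Atm lesion exceeded 0.35 TPM, and 9 of the 11 libraries with it did; Atm MT replicate 3 and DM replicate 1 were low. The change in Atm MT against WT did not pass in limma (log2 ratio 1.38 ± 0.47, adjusted p = 0.206).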
